A study of Mus musculus with 12 samples.

Results

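The comparison is between HPmECC and mECC, cell lines of endometrial cancer from C57BL/6 mice, with 4 RNA samples of each. These 8 samples were chosen by the cell line named in their labels, out of 12 in the series; the other 4 are primary cultured normal endometrial cells of the same strain and serve here only as a reference level. Some cancer lines of the series overexpress Myc, according to its design text. The labels do not say which, and they name no treatment, growth condition, age or passage for either. Sample titles add the codes WT to HPmECC and DM to mECC without explaining them. Whether a line is a single clone, and whether its 4 samples are separate cultures, is not stated, so every p-value reflects the spread among these samples alone, which may be technical. Levels are in CPM, read counts scaled to a common library size with TMM factors, and a fold change is HPmECC over mECC from the edgeR fit unless said otherwise.

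Endometrial cancers arise mostly from the epithelium that lines the uterine cavity and its glands. Epithelial cells are held together by E-cadherin, tight junctions and desmosomes, rest on a basement membrane, and keep their state through regulators such as the Grainyhead-like and ESRP proteins. Epithelial-to-mesenchymal transition is the loss of these contacts with a gain of matrix and motility genes, and factors of the Snail, Zeb and Twist families are known to drive it by repressing epithelial genes. Myc is a transcription factor known for raising genes of growth, protein synthesis and nucleotide supply.

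In the samples, 18402202 to 26873582 counts were assigned to genes, and 14201 of 55385 gene identifiers passed the filter on low counts. A principal component with 86.6% of the variance separated the lines. The next, with 2.74%, set HPmECC replicates 3 and 4 apart from each other. HPmECC replicate 4 differed by more than 0.5 on the log2 scale from the mean of the other HPmECC samples in 12 genes above and 23 below, of 10458 compared. For the other HPmECC samples it was 4 to 11 genes in each direction. Counts of genes in 1 line only, of the TGF-beta list and of the amino acid list are given with and without replicate 4. Fold changes of single genes are given with it. The biological coefficient of variation between samples of a line was 4.14%.

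Sequences from the RefSeq promoter table for mouse build GRCm38.p6 are shown first for genes on which the results below turn. The table gives 250 bases before to 50 after each transcription start. The letters CAGGTG, searched on both strands so that CACCTG counts too, are an E-box of the kind that Snail and Zeb proteins are known to bind. Their stretch before the start is printed for Epcam, Cldn7 and Cldn4, genes of the epithelial surface and tight junctions that were nearly silent in HPmECC, with the match in capitals.
Epcam, chr17:87635910-87635978, plus strand: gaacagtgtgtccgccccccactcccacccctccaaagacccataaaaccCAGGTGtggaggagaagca
Cldn7, chr11:69965314-69965419, plus strand: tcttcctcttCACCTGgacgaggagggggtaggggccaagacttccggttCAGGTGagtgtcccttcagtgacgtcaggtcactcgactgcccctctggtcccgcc
Cldn4, chr5:134946935-134946998, minus strand: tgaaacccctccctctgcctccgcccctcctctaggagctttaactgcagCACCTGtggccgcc
In Epcam the match began 19 bases before the start, in Cldn4 14 and, for the nearer of 2 copies, in Cldn7 57. Cldn7 has 2 entries, and the start of the one printed lies downstream of the annotated gene start at 69964779. The second set carries TGATGCAA, the letters of a C/EBP and ATF response element of the type through which ATF4 and CHOP are known to act, also searched on both strands (TTGCATCA). It is printed for Chac1, Nupr1 and Pycr1, members of the amino acid list that were higher in HPmECC.
Chac1, chr2:119350999-119351106, plus strand: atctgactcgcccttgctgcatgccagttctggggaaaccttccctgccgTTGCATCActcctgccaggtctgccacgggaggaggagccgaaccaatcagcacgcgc
Nupr1, chr7:126625523-126625630, minus strand: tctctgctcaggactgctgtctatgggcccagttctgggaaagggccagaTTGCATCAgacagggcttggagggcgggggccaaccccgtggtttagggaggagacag
Pycr1, chr11:120643794-120643901, minus strand: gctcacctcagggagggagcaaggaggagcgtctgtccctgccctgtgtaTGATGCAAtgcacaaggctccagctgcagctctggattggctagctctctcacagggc
The matches began 193, 110 and 103 bases before the start in that order. The Nupr1 stretch lies within the annotated gene, at 126623249 to 126630861. A match of letters is a description and was not tested for binding.

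The lines differed in most genes by a little and in some by a great deal. Of the 14201 genes tested, 5077 (35.8%) were higher in HPmECC and 5105 (35.9%) lower at an edgeR adjusted p under 0.05. With a change of at least 2-fold as well, 905 (6.37%) were higher and 1230 (8.66%) lower. The median absolute log2 fold change was 0.306, and 72.6% of the genes lay within 1.5-fold of each other. At least 10-fold differences numbered 127 higher and 270 lower. In 9400 genes (66.2%) the samples of the lines did not overlap, and genes named for the largest changes were chosen among these. Counts of called list members below stand beside 35.8% higher and 35.9% lower over all genes tested. The genes at least 2-fold lower took up 3.52% of all transcripts in mECC and 1.06% in HPmECC on the TPM scale, and those at least 2-fold higher 0.676% and 2.04%. Large changes were thus held by genes that made up a small part of the transcripts of either line. Except for Slc7a7, Csf1r and Snai3, each gene named below as higher or lower had an edgeR adjusted p of at most 0.000784, that of mt-Atp8. By the same test Slc7a7 stood at 0.0378 and Csf1r at 0.00115, and for Snai3 only the call is given. Values with ± are the mean and SD of the 4 samples of a line, and intervals and floors given for very low counts cover counting error only.

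**Figure D1:**
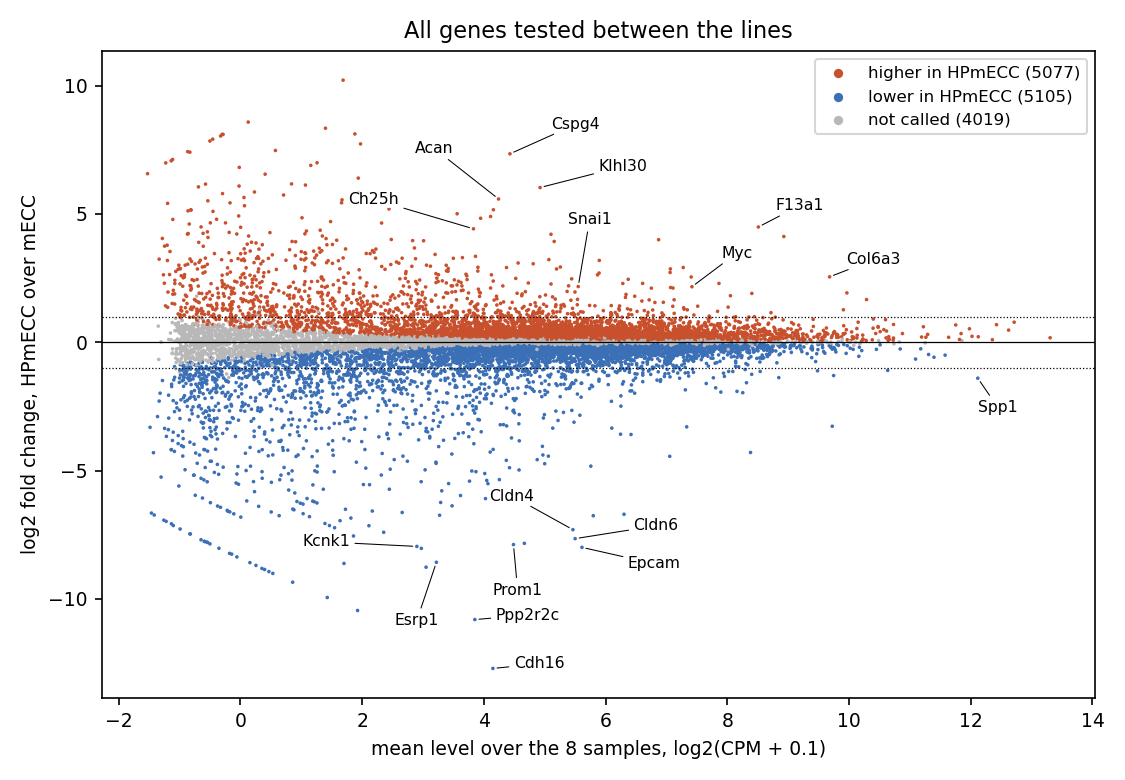
Log2 fold change of HPmECC over mECC (vertical axis) against the mean level over the 8 samples, log2(CPM + 0.1) (horizontal axis), for the 14201 genes tested; dotted lines mark 2-fold. Most genes sit near 0, and the arm of genes below -5 holds Epcam, Cldn4, Esrp1 and Cdh16; fitted values of genes with 0 counts in a line depend on the prior count and line up on diagonals.

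The transcripts that most filled the lines were the same in part. By TPM, which is per transcript length, Eef1a1, a translation elongation factor, stood at 9745 ± 153 in mECC and 10492 ± 104 in HPmECC (SD, n = 4). Spp1, the secreted phosphoprotein osteopontin, was the third highest gene of mECC at 8572 ± 183 TPM and fell 2.64-fold on the CPM scale, to 3097 ± 244 TPM. The housekeeping genes Gapdh and Ftl1, an enzyme of glycolysis and the ferritin light chain, were among the 6 highest of HPmECC and rose by 1.26-fold and 1.24-fold. The mitochondrial genes mt-Co1 and mt-Atp8 moved oppositely, by log2 fold changes of 0.47 and -0.31. mt-Atp8 overlaps mt-Atp6, and Gm10925 resembles a mitochondrial sequence, so reads of these may be shared among copies and their values are uncertain.

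The labelled cell type was checked against 12 epithelial markers. All 12 were measured and all 12 were lower in HPmECC, with a median log2 fold change of -5.04 against 0.00 (-0.00261) over all genes tested. Summed over the 12 genes, mECC samples held 1650.0 to 1710.0 TPM and HPmECC samples 355 to 374 TPM. So mECC carried epithelial markers, whereas in HPmECC most defining markers were at or near 0 and what remained was largely keratin. mECC also carried fibroblast and stroma markers, which summed to 5550 to 6030 TPM, so its markers were mixed. Krt8 and Epcam stood lower in mECC than in normal cells, at 200 against 2085 and 105 against 429 TPM. The other markers were not compared with normal cells here. In RNA from a culture, fewer cells of a type and less RNA per cell cannot be told apart.

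Epcam, an epithelial surface adhesion molecule (ENSMUSG00000045394, chromosome 17 at 87635979 to 87651129 of GRCm38), stood at 98.8, 93.1, 96.96 and 100.4 CPM in the mECC samples and at 0.403, 0.451, 0.1102 and 0.464 CPM in the HPmECC samples. It fell 255-fold (log2 fold change -7.99 with SE 0.10, edgeR adjusted p = 3.93e-17). Cdh1, which encodes E-cadherin (chromosome 8 at 106603351 to 106670246), stood at 112, 111, 110.0 and 107 CPM against 0.762, 1.32, 0.772 and 1.08 CPM. In both genes every mECC sample exceeded every HPmECC sample by more than an order of magnitude. Of the simple keratins, Krt8 and Krt18 fell less than 2-fold. Krt8, an intermediate filament protein of simple epithelia, stood at 225, 215, 225 and 209 CPM in mECC. In HPmECC it stood at 139, 137, 129.6 and 117 CPM. Its groups did not overlap either, but the fold was 1.67, and that of its partner Krt18 1.85. The other 10 markers, the simple keratins Krt7 and Krt19 among them, fell at least 2-fold. The marker with the largest fall was Esrp1, the splicing regulator described next.

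Among 13 tested epithelial regulators 11 fell and 0 rose, with a median log2 fold change of -1.795. Esrp1, which sets the epithelial splicing of many transcripts, stood at 18.02, 18.5, 18.2 and 18.9 CPM in mECC and 0.0896, 0.0376, 0 and 0.0387 CPM in HPmECC, a fall of 381-fold. Grhl2, a Grainyhead-like factor that maintains epithelial junction genes, went from 7.19, 7.74, 9.04 and 7.07 to 0.179, 0.113, 0.165 and 0.193 CPM, 46.7-fold lower. No HPmECC sample came near the mECC range in either gene. Elf3, an epithelial ETS factor, kept more of its level, at 32.6 ± 2.28 against 9.32 ± 0.942 CPM (SD, n = 4), 3.47-fold lower. Klf5 and Tfap2a were not called, with log2 fold changes of 0.12 and 0.10.

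The factors that drive epithelial-to-mesenchymal transition did not move together. Of 12 tested, 5 rose and 5 fell (41.7% each, beside 35.8% and 35.9% over all genes). The 2 that fell at least 2-fold were Snai3, with a log2 fold change of -3.025, and Snai2. The 1 that rose at least 2-fold was Snai1, which encodes Snail. It stood at 17.9, 16.6, 17.4 and 16.1 CPM in mECC and 75.2, 74.97, 76.8 and 79.3 CPM in HPmECC (log2 fold change 2.17 with SE 0.041, edgeR adjusted p = 4.29e-15). Its relative Snai2, which encodes Slug, went the other way, from 108 ± 2.22 to 50.8 ± 4.9997 CPM, 2.14-fold lower. Zeb1, a repressor of Cdh1, rose 1.45-fold from 69.7 ± 2.17 CPM. Cdh2, the N-cadherin often gained in such a transition, fell 3.52-fold from 63.5 ± 2.02 to 18.004 ± 0.953 CPM, and Vim, the mesenchymal filament protein vimentin, was already at 2177 ± 46.4 CPM in mECC and stood 1.15-fold higher in HPmECC.

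**Figure D2:**
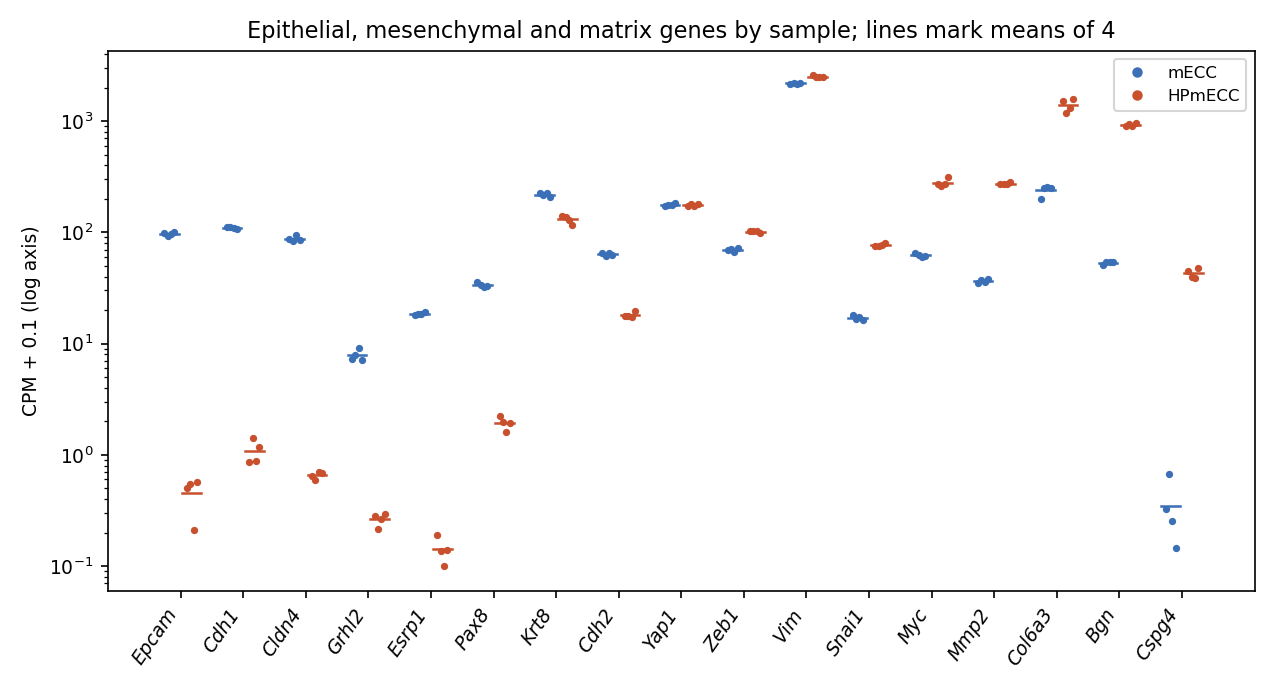
CPM + 0.1 on a log axis for 17 genes, with 1 point per sample (mECC blue, HPmECC orange) and a line at the mean of 4. Epithelial genes at the left drop by orders of magnitude in HPmECC, Krt8, Yap1, Zeb1 and Vim differ by less than 2-fold, and Snai1, Myc, Mmp2, Col6a3, Bgn and Cspg4 at the right are higher.

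Transcription factor families as a whole, 217 genes tested, split evenly, with 94 higher, 86 lower and a median log2 fold change of 0.064. The largest falls among well-expressed members were in Foxj1, Pax8, Foxa2, Pax9, Tbx15 and Elf3. Foxj1, the regulator of motile cilia, fell 42.6-fold from 26.4 ± 2.003 to 0.611 ± 0.1795 CPM. Pax8, which marks cells of Müllerian duct origin, stood at 35.6, 33.4, 32.4 and 32.8 CPM against 2.15, 1.88, 1.49 and 1.82 CPM, 18.1-fold lower. Foxa2, which is needed for uterine glands, fell 11.3-fold, and Pax9 and Tbx15, factors of pharyngeal and skeletal development, fell 6.22-fold and 5.71-fold. Of 43 motile cilium genes 14 passed the filter, of which 2 rose and 2 fell, Foxj1 itself being one of the falls. These were 14.3% each, below the 35.8% and 35.9% over all genes, and 10 were not called. With DESeq2 4 fell, and with no filter on low counts 6. Tppp3, a tubulin-binding protein gene, rose 1.996-fold.

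The largest rises were in Heyl, Mef2c, Nr4a3, Myb, Tbx3 and Snai1. Heyl, a Notch-responsive repressor, stood at 0.764, 0.877, 0.916 and 0.805 CPM in mECC and 12.9, 12.3, 11.6 and 15.9 CPM in HPmECC, 15.6-fold higher. Mef2c, a factor of muscle and vascular development, went from 6.2002, 6.64, 6.45 and 6.62 to 62.5, 62.4, 59.3 and 57.7 CPM, 9.32-fold higher. Nr4a3, an orphan nuclear receptor induced by many stimuli, rose 6.39-fold, Myb, a factor of progenitor cells, 5.199-fold, and Tbx3, a T-box repressor, 4.85-fold. Myc itself (chromosome 15 at 61985391 to 61990374) stood at 65.2, 62.8, 60.2 and 61.6 CPM in mECC and 270.2, 261, 271 and 317 CPM in HPmECC. All HPmECC samples lay above all mECC samples, and replicate 4 was the highest of them.

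Tight junction genes and cadherins were mostly lower in HPmECC. Of 30 tight junction and polarity genes 25 fell and 4 rose, 15 and 1 of them at least 2-fold. Their median log2 fold change was -1.07. Cldn6 and Cldn4, claudins that seal the space between epithelial cells, fell 201-fold and 158-fold, from 89.9 ± 5.66 and 87.5 ± 4.84 CPM. Cldn7 and Cldn3, whose level in HPmECC was 0.455 ± 0.161 and 2.33 ± 0.287 CPM, fell 45.5-fold and 23.8-fold. The rise of at least 2-fold was in Cldn11, a claudin of myelin and Sertoli cells, with 5 counts over the mECC samples and 132 over the HPmECC samples. Mpp5, a scaffold of the Crumbs complex, rose 1.46-fold. Cldn2 and Cldn1, claudins of leaky epithelia and of the epidermis, fell too, by log2 fold changes of -6.53 and -5.51.

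Cadherins fell in 10 of 11 cases. Cdh16, a cadherin of kidney and other tubular epithelia, had 3424 counts over the mECC samples and 0 over the HPmECC samples, at least 1093-fold lower against a floor of 3 counts over the 4 samples. The exception was Cdh15, the muscle cadherin, which stood at 1.57, 1.95, 1.37 and 1.298 CPM in mECC and 14.4, 17.2, 14.4 and 20.5 CPM in HPmECC, 10.7-fold higher. Of 15 desmosome and hemidesmosome genes 8 fell and 6 rose, beside 35.9% lower and 35.8% higher over all genes. Evpl, Krt14 and Dsp, which encode the plaque protein envoplakin, a basal keratin and desmoplakin, fell 29.9-fold, 13.3-fold and 5.64-fold. The plaque gene Pkp2 rose 2.14-fold, from 21.2 ± 1.204 to 45.5 ± 1.71 CPM. Among 16 immunoglobulin-type adhesion genes 6 fell (37.5%), a share near that over all genes, and 3 rose, led by Nectin4 (91.03-fold lower), a nectin of epithelial cells, and Lrfn1 (2.33-fold higher), a synaptic adhesion protein.

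Matrix genes changed in both directions in nearly equal numbers. Of 22 proteoglycan and hyaluronan genes 10 rose and 10 fell (45.5% each, beside 35.8% and 35.9% over all genes). At least 2-fold changes numbered 7 higher and 6 lower in this list. Cspg4, the membrane proteoglycan NG2 of pericytes and glial progenitors (chromosome 9 at 56865033 to 56899870), stood at 0.225, 0.572, 0.153 and 0.0447 CPM in mECC and 44.9, 39.3, 39.1 and 47.3 CPM in HPmECC. It rose 163-fold (log2 fold change 7.34 with SE 0.19, edgeR adjusted p = 1.12e-13). The lowest HPmECC sample was far above the highest mECC sample. Acan, the cartilage proteoglycan aggrecan, went from 1.17, 0.687, 0.611 and 0.626 to 35.98, 28.7, 37.6 and 45.2 CPM, and Prelp and Bgn, small leucine-rich proteoglycans, rose 18.5-fold and 17.4-fold. Bgn samples stood at 904, 936, 896 and 952 CPM in HPmECC against 50.3, 53.6, 54.4 and 53.4 CPM in mECC. Omd, osteomodulin, a member of the same leucine-rich family, fell 6.25-fold from 16.2 ± 1.35 to 2.6 ± 0.383 CPM.

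Of 24 collagen chains 11 rose and 11 fell (45.8% each, beside 35.8% and 35.9% over all genes). Col6a3, a chain of the microfibrillar collagen VI, stood at 198, 252, 255 and 252 CPM in mECC and 1526, 1170.0, 1323 and 1593 CPM in HPmECC, 5.86-fold higher, while its partner chains Col6a1 and Col6a2 fell by log2 fold changes of -0.50 and -0.65. Col1a2 rose 4.31-fold from 40.6 ± 1.98 to 175 ± 14.03 CPM and its partner Col1a1 fell (-0.58), so in both collagens the chains of 1 molecule moved apart. Col2a1, the cartilage collagen, rose 5.55-fold, and Col28a1, a collagen of peripheral nerve sheaths, fell 3.31-fold. Among 21 basement membrane genes 9 rose and 11 fell (42.9% and 52.4%). Col4a3, a chain of the specialised collagen IV network, fell 82.99-fold from 21.8 ± 1.25 CPM, whereas the general chains Col4a1 and Col4a2 rose 1.89-fold and 1.96-fold. Nid2, which links laminin to collagen IV, rose 10.2-fold from 2.55 ± 0.645 to 26.4 ± 1.71 CPM.

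Matricellular and elastic fibre genes numbered 16 higher and 19 lower of 37 (43.2% and 51.4%, beside 35.8% and 35.9% over all genes). Eln, which encodes the elastic fibre protein elastin, had 3 counts over the mECC samples and 720 over the HPmECC samples, a ratio of 251 (95% exact counting interval 85.4 to 1218). The microfibril genes Mfap2 and Mfap5 rose 4.98-fold and 4.75-fold from under 1 CPM, and Loxl2, a lysyl oxidase that cross-links matrix, fell 8.53-fold. Of 39 proteases and inhibitors 13 rose and 19 fell (33.3% and 48.7%). Mmp2, a gelatinase, and Serpine2, an inhibitor of serine proteases, rose 7.53-fold and 9.13-fold to 274 ± 6.498 and 107 ± 4.11 CPM. Mmp9, the other gelatinase, rose 15.8-fold to 5.45 ± 0.407 CPM, and Mmp15, a membrane-type metalloprotease, fell 24.3-fold from 39.5 ± 2.14 CPM. Of 20 integrins, the receptors for matrix, 7 rose and 10 fell. Itgb6, the partner of integrin alpha v in epithelia, had 505 counts in mECC and 0 in HPmECC, at least 161-fold lower, and Itgb7, of lymphocyte integrins, rose 5.71-fold to 6.49 ± 1.14 CPM.

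The other genes with the largest changes had no common list. Klhl30, a kelch-repeat gene, stood at 0.944, 0.763, 1.03 and 0.895 CPM in mECC and 60.05, 61.4, 60.95 and 56.2 CPM in HPmECC, 65.3-fold higher. Hspb7, a small heat shock protein of muscle, rose 35.9-fold, Ces2g, a carboxylesterase, 36.6-fold, Lingo3, a leucine-rich membrane protein, 32.2-fold, and Olfm1, a secreted olfactomedin, 28.5-fold. F13a1, the transglutaminase subunit of clotting factor XIII, stood at 25.8, 35.7, 26.6 and 35.9 CPM in mECC and 648, 711, 651 and 784 CPM in HPmECC. Ch25h, which makes an oxysterol, rose 21.4-fold. On the lower side Ppp2r2c, a regulatory subunit of phosphatase 2A, had 2795 counts in mECC and 1 count in HPmECC, a ratio of 2676 (95% exact counting interval 479.9 to 105740.0). Kcnk1, a potassium channel, Prom1, the stem cell surface protein prominin, and Padi1, a peptidylarginine deiminase, fell 248-fold, 236-fold and 229-fold.

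Transcripts found in 1 line only were counted on the TPM scale, as genes with at least 1 TPM in all 4 samples of a line and under 0.1 TPM in all 4 of the other. There were 12 such genes for HPmECC and 46 for mECC. Without HPmECC replicate 4 they numbered 19 and 57, and without mECC replicate 3, 19 and 47. The HPmECC genes reached at most 6.32 TPM, and the mECC genes at most 23.7 TPM, so none belonged to the abundant transcripts of either line. Trim54, a muscle ring-finger gene, had 1 count in mECC and 468 in HPmECC, a ratio of 489 (95% exact counting interval 87.3 to 19346). Clec4e, a lectin receptor of macrophages, had 0 and 582 counts, at least 203-fold higher. Others were Eln, Plac9b, 4933401H06Rik, Tmem229a, Cpne7, Rab33a, Cd163, Cox6a2 and Pou4f1; Plac9b has a near-identical copy, so its value is uncertain. In normal cells 1 of the 12 HPmECC genes, Plac9b, had a mean of at least 1 TPM. Of the 46 mECC genes 27 did, among them the epithelial genes Ap1m2, Grb7, Tmprss4 and Serpinb5 at 105, 31.7, 148 and 23.7 TPM. With 2 TPM in place of 1 the counts were 4 and 26, and with 0.5 TPM in place of 0.1 they were 71 and 164.

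Signalling genes were described by pathway. In WNT signalling, with 43 genes tested, 17 rose (39.5%) and 21 fell (48.8%), beside 35.8% and 35.9% over all genes. Among the ligands Wnt7a, which patterns the uterine epithelium, fell 169.5-fold from 9.99 ± 0.7596 CPM, and Wnt7b fell 31.5-fold from 46.2 ± 3.76 to 1.43 ± 0.397 CPM. Wnt6, another ligand, had 2 counts in mECC and 86 in HPmECC, a ratio of 44.9 (95% exact counting interval 12.1 to 377). Fzd9, a receptor, rose 11.01-fold to 7.51 ± 0.982 CPM. Nkd1, an inhibitor induced by the pathway, had 0 counts in mECC and 65 in HPmECC, at least 22.6-fold higher.

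Notch and Hedgehog genes were higher in 14 and lower in 4 of 23 cases, with a median log2 fold change of 0.366. On the Notch side the ligand Jag2 rose 4.33-fold from 6.41 ± 0.838 to 27.95 ± 1.396 CPM beside the target Heyl. On the Hedgehog side Ptch1, the receptor and a known target, stood at 83.1, 94.1, 87.7 and 98.6 CPM in mECC and 222, 213, 224 and 229.7 CPM in HPmECC, and Gli1, the other classical target, went from 6 to 92 counts. Smo, the signal transducer that Ptch1 restrains, fell 1.43-fold. Jag2 lies on chromosome 12, on which most tested genes were called higher.

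TGF-beta and BMP genes numbered 19 higher and 20 lower of 47, and 20 and 19 without HPmECC replicate 4. The shares of 19 and 20 were 40.4% and 42.6%, beside 35.8% and 35.9% over all genes. Bambi, a pseudoreceptor, and Bmp4, a ligand, rose 3.92-fold and 3.602-fold, to 9.77 ± 1.18 and 8.74 ± 0.758 CPM. In the EGF, FGF and PDGF list 16 rose and 19 fell of 37 (43.2% and 51.4%). The growth factor gene Fgf5 rose 10.96-fold to 7.85 ± 0.439 CPM and the receptor gene Erbb3 fell 10.2-fold to 0.648 ± 0.263 CPM. In the list of MAPK feedback and immediate early genes 16 rose and 9 fell of 31 (51.6% and 29.0%). Myc belongs to that list, Dusp2, a phosphatase of MAP kinases, rose 4.29-fold, and Etv1, an ETS factor, fell 2.16-fold. Of 27 IGF and VEGF genes 13 rose and 11 fell (48.1% and 40.7%), or 10 and 11 by limma on log2(TPM + 1). Flt1, a VEGF receptor, rose 7.78-fold to 12.3 ± 1.34 CPM, and Igf2, the fetal growth factor, stood at 23.5, 23.6, 23.5 and 28.8 CPM in mECC and 1.703, 1.99, 2.204 and 1.86 CPM in HPmECC, 12.8-fold lower.

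YAP and TEAD genes held no change of 2-fold. Of 28 genes 12 rose and 10 fell (42.9% and 35.7%, beside 35.8% and 35.9% over all genes). The log2 fold changes of the list ran from -0.974 to 0.851. The counts turned to 12 and 13 with library totals in place of TMM. Yap1, the coactivator of the Hippo pathway, stood at 173, 177, 175 and 183 CPM in mECC and 172, 178, 172 and 179 CPM in HPmECC, which overlapped. The edgeR test did not call it, whereas limma on log2(TPM + 1) called it lower (log2 difference -0.156, adjusted p = 0.00287). Tead4 rose 1.803-fold and Vgll3 fell 1.96-fold, a DNA-binding partner and a cofactor of the pathway.

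Axon guidance families, which also steer cell contact and movement, followed. Of 17 ephrins and Eph receptors 11 fell and 3 rose. The receptor Epha7 went from 54.4, 64.97, 58.8 and 67.7 to 2.38, 2.07, 3.09 and 1.93 CPM, 26.6-fold lower, and the receptor Epha3 from 1.303, 1.14, 1.14 and 0.8501 to 31.1, 35.6, 29.04 and 37.3 CPM, 29.9-fold higher. These 2 receptors of the same class were picked as the largest rise and the largest fall of the list without overlap between the lines. Their opposite directions and lack of overlap follow from that choice. Semaphorins, plexins, slits and netrins fell in 16 and rose in 11 of 36 cases (44.4% and 30.6%, beside 35.9% and 35.8% over all genes). With limma on log2(TPM + 1) 6 of the list rose. Sema3c, a secreted semaphorin, fell 12.1-fold from 158 ± 1.32 to 13.1 ± 1.61 CPM, and Sema4d rose 1.75-fold.

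Genes of positional and uterine identity were mostly lower. Of 24 urogenital and Müllerian transcription factors 18 fell and 4 rose, 10 and 1 at least 2-fold. Their median log2 fold change was -0.637. Eya2, a transcriptional coactivator of organ development, stood at 58.5, 60.05, 61.3 and 58.97 CPM in mECC and 2.24, 3.08, 2.65 and 3.25 CPM in HPmECC, 21.01-fold lower. Sox17, a factor of the uterine glands, had 79 counts in mECC and 0 in HPmECC, at least 25.2-fold lower. It was already low in mECC, at a mean of 1.15 TPM against 437 TPM in normal cells. Hand2, a progesterone-induced factor of the stroma, fell 11.9-fold from 2.25 ± 0.237 CPM.

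Of 20 tested HOX genes 15 fell and 3 rose. HOX genes specify position along the body axis, and the posterior members pattern the uterus. Hoxd8 fell 3.54-fold from 7.58 ± 0.6602 to 2.14 ± 0.424 CPM, the largest fall of the list. Hoxa11, a uterine HOX gene, was low in both lines, at 0.315, 0.0381, 0 and 0.0895 CPM in mECC and 1.61, 1.13, 0.772 and 1.199 CPM in HPmECC, 10.98-fold higher.

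Imprinted genes, which are expressed from the allele of 1 parent, rose in 16 and fell in 6 of 25 cases (64.0% and 24.0%). Over all genes the shares were 35.8% and 35.9%. With limma on log2(TPM + 1) 10 imprinted genes rose. Peg3, a paternally expressed zinc-finger gene, stood at 33.1, 39.4, 38.1 and 37.9 CPM in mECC and 0.941, 0.715, 0.827 and 1.12 CPM in HPmECC, 40.9-fold lower. Its neighbour Usp29, expressed from the same allele, had 133 and 0 counts, at least 42.4-fold lower, so the pair went together. Mest, of another imprinted region, went from 4.72, 3.36, 4.08 and 3.04 to 25.2, 29.4, 22.6 and 26.4 CPM, 6.85-fold higher. Expression does not show from which allele the transcripts came.

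Lists of biosynthesis were mostly higher in HPmECC, first among them amino acid supply and ATF4 targets. ATF4 is the factor of the integrated stress response, made when amino acids are short or unfolded protein accumulates, and it is known to raise transporters, serine and one-carbon enzymes and tRNA charging. Of 33 genes tested 30 rose and 2 fell, 14 and 1 at least 2-fold, against 35.8% of all genes higher. Their median log2 fold change was 0.89. The 33 do not include Slc7a11, a known ATF4 target that fell and is described below with the NRF2 targets. Cth, which makes cysteine from cystathionine, stood at 3.19, 2.82, 2.63 and 2.01 CPM in mECC and 20.8, 17.3, 22.98 and 12.6 CPM in HPmECC, 6.82-fold higher. Asns, asparagine synthetase, stood at 66.9, 59.3, 65.8 and 57.9 against 207, 180.5, 211 and 139.6 CPM, 2.94-fold higher, and Trib3, a pseudokinase that feeds back on ATF4, at 9.35, 8.32, 9.88 and 7.65 against 52.2, 39.99, 53.6 and 30.7 CPM. The samples of the lines did not overlap in these genes, as in 66.2% of all genes tested. HPmECC replicate 4 was the lowest HPmECC sample in Cth, Asns and Trib3.

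Psat1, an enzyme of serine synthesis, rose 2.58-fold, from 144 ± 10.9 to 373 ± 44.8 CPM, and Pycr1, an enzyme of proline synthesis, 2.705-fold. Atf4 itself rose 1.79-fold, Ddit3, which encodes CHOP, 1.86-fold, Chac1, a glutathione-degrading enzyme, 3.59-fold and Nupr1, a stress-induced nuclear protein, 2.02-fold. The hormone gene Fgf21 went from 0.1705 ± 0.117 to 1.36 ± 0.5598 CPM. Cbs, which makes the cystathionine that Cth uses, went against the list, from 32.98, 34.6, 34.6 and 36.6 to 2.87, 3.12, 3.97 and 4.95 CPM, 9.28-fold lower. Thus neighbouring steps of 1 pathway moved in opposite directions. Without HPmECC replicate 4, 29 genes were called higher, 2 lower and the median was 0.981. The part of culture conditions in these values was not tested.

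**Figure D3:**
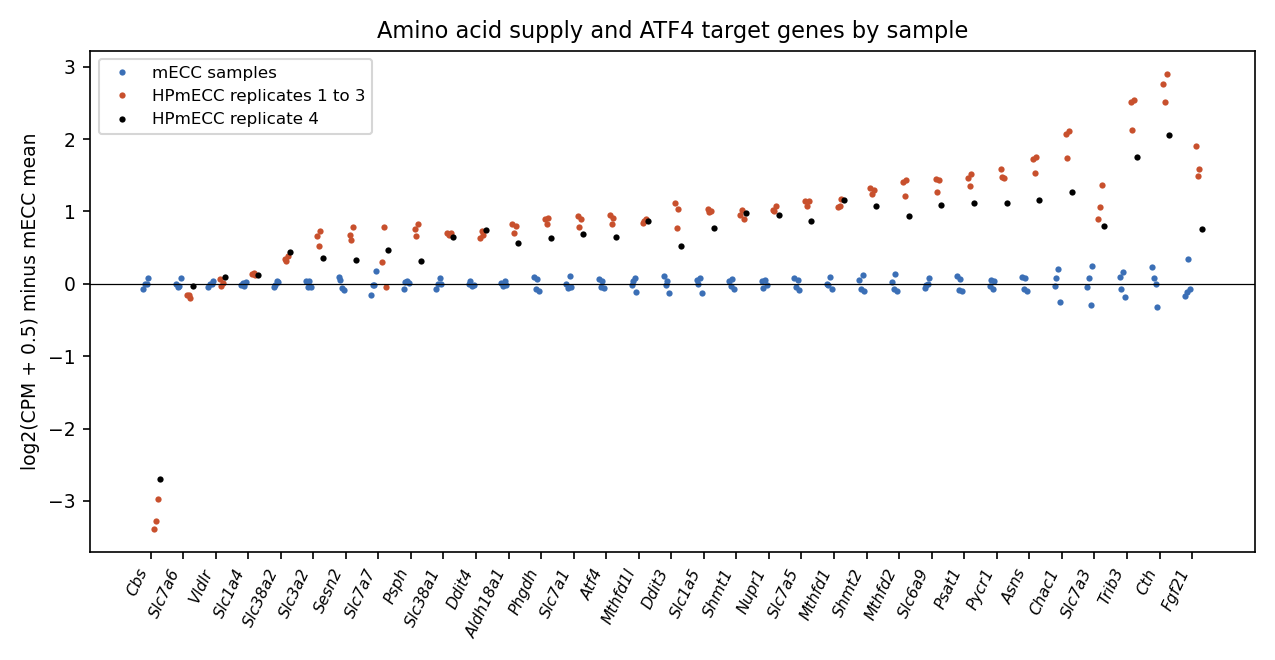
Level of 33 amino acid supply and ATF4 target genes, as log2(CPM + 0.5) minus the mECC mean, with 1 point per sample: mECC blue, HPmECC replicates 1 to 3 orange, HPmECC replicate 4 black. From Psph rightward the HPmECC samples lie above the mECC samples, replicate 4 is the lowest of them in many genes, and Cbs at the left goes the other way.

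Nucleotide synthesis genes rose in 25 and fell in 5 of 30 cases, by little: the median log2 fold change was 0.373, and 1 gene reached 2-fold. That gene was Sms, spermine synthase, an enzyme of polyamine rather than nucleotide synthesis, at 2.11-fold. Nme2, a nucleoside diphosphate kinase, fell 1.25-fold; its reads may be shared with the near-identical Nme1. Translation factors rose in 33 and fell in 4 of 43 cases, with a median of 0.227; with limma on log2(TPM + 1) 8 fell. Eif4ebp1, the repressor of cap-dependent translation under mTOR and a known ATF4 target, rose 2.299-fold from 55.4 ± 3.05 to 128 ± 8.33 CPM, and its relative Eif4ebp2 fell 1.26-fold. Of 37 heat shock and chaperonin genes 26 rose and 8 fell; the small heat shock genes Hspb7 and Hspb8 were the ones past 2-fold, and Hspa13, of the Hsp70 family, fell 1.43-fold.

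Degradation genes went the other way. Of 41 proteasome genes 25 fell and 5 rose, with a median of -0.113, and the largest change among subunits of the constitutive particle was in Psmc3, which fell 1.54-fold. Psmb8 and Psmb9, subunits of the immunoproteasome, rose 1.71-fold and 2.18-fold. Of 38 lysosome and autophagy genes 23 fell and 10 rose, or 6 rose with limma on log2(TPM + 1). Hexa, a lysosomal hexosaminidase subunit, fell 2.02-fold from 104 ± 5.65 to 51.5 ± 3.901 CPM, and Ctsc, a cathepsin, rose 2.12-fold.

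NRF2 targets and glutathione genes fell in 22 and rose in 9 of 34 cases. NRF2 is the factor of the oxidative stress response. Gsta4, a glutathione transferase, stood at 116, 116, 112 and 111 CPM in mECC and 24.6, 23.8, 25.02 and 19.2 CPM in HPmECC, 4.93-fold lower. Gclc, of the rate-limiting enzyme of glutathione synthesis, fell 2.79-fold and Slc7a11, the cystine transporter, 2.08-fold, while Nqo1, a classical NRF2 target, rose 2.51-fold. Gpx2, an epithelial glutathione peroxidase, had 153 counts in mECC and 0 in HPmECC, at least 48.8-fold lower. Slc7a11 is also a known target of ATF4. It was not a member of the amino acid and ATF4 list, so the counts of that list leave out its fall.

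Among aldehyde dehydrogenases and retinoid genes 10 rose and 13 fell of 30 (33.3% and 43.3%, beside 35.8% and 35.9% over all genes). Aldh1l2, a mitochondrial folate enzyme, rose 6.49-fold from 15.8 ± 0.712 to 103 ± 15.4 CPM, and Aldh1a2, which makes retinoic acid, fell 31.4-fold from 15.7 ± 1.55 to 0.4998 ± 0.0986 CPM. Crabp1, a carrier of retinoic acid, rose 15.2-fold to 3.199 ± 0.262 CPM. Circadian clock genes rose in 12 and fell in 4 of 19 cases (63.2% and 21.1%). The repressor Cry1 rose 1.65-fold by counts, but on the TPM scale it did not pass the test (log2 fold change 0.07, limma adjusted p = 0.816). In mECC it stood at 11.8 ± 0.785 CPM but 10.8 ± 4.93 TPM, so its mECC samples were widely spread on the TPM scale. In HPmECC it stood at 10.7 ± 0.917 TPM. The cause of that spread was not tested. Its relative Cry2 fell 1.32-fold.

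**Figure D4:**
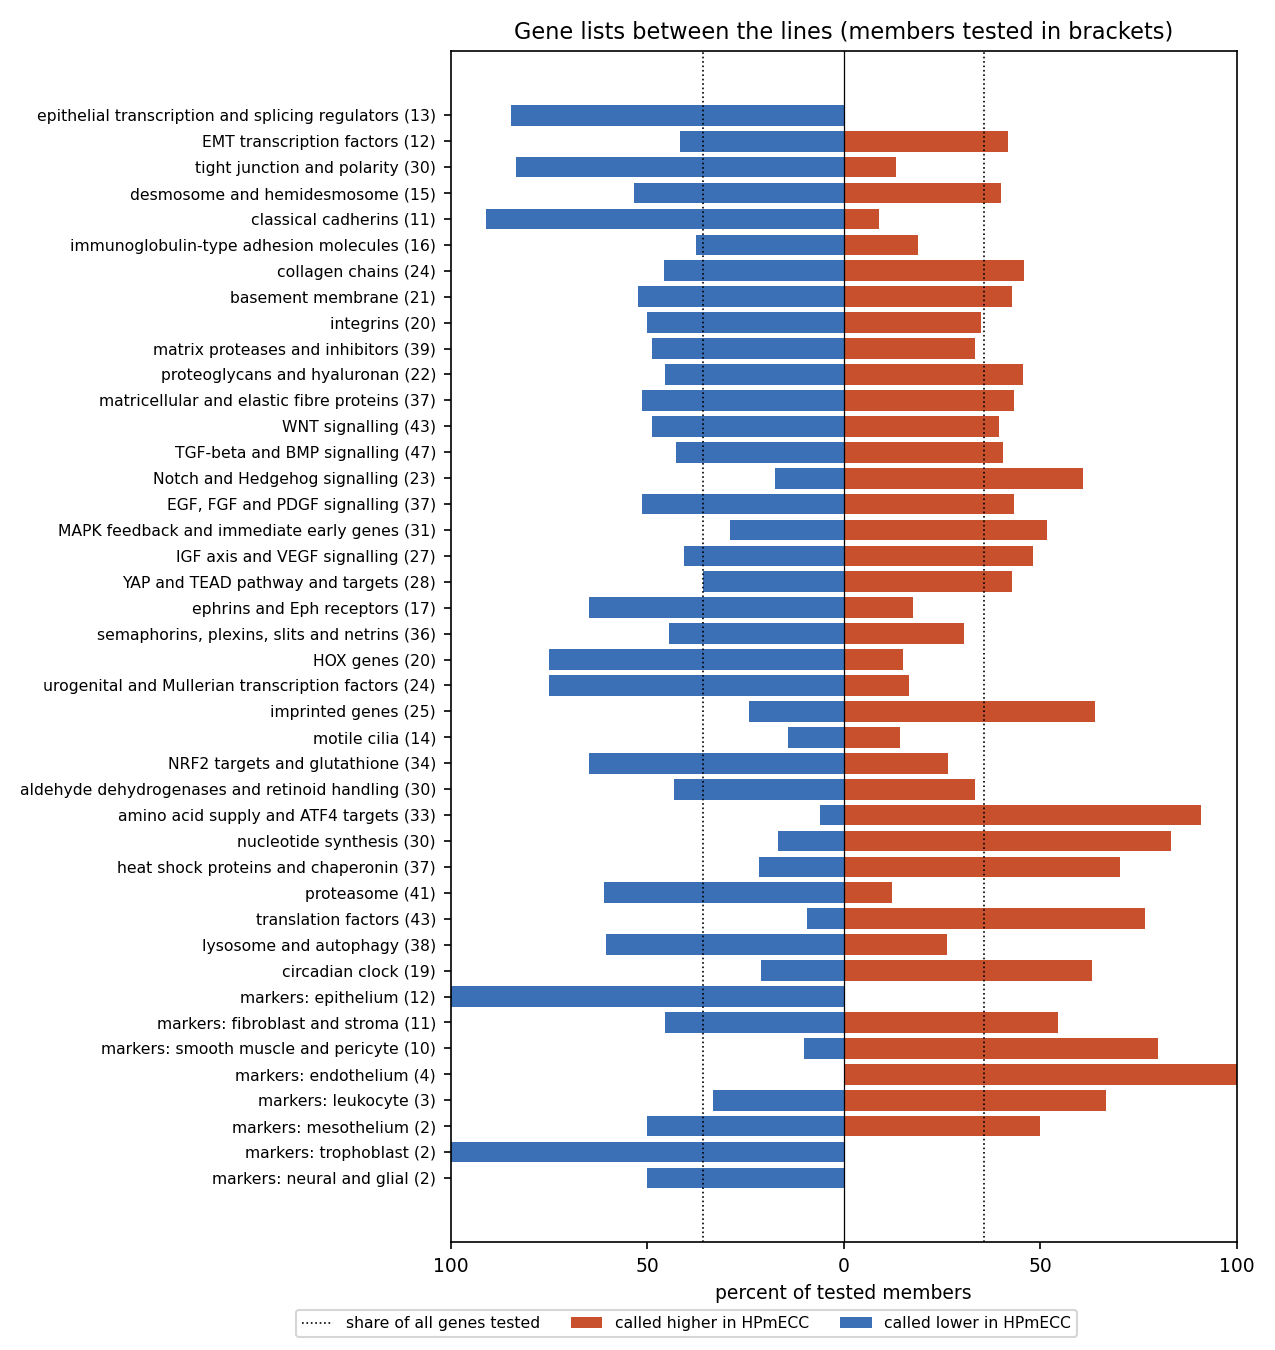
Percent of the tested members of each list that were called higher (orange, right) or lower (blue, left) in HPmECC, with the number tested in brackets; dotted lines mark the shares over all genes tested, 35.8% higher and 35.9% lower. Epithelial, junction, cadherin, HOX and urogenital lists lie to the left, and amino acid, nucleotide and translation lists to the right.

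Markers of other cell types were checked beside these results. Of 12 smooth muscle and pericyte markers 10 were tested, 8 rose and 1, Rgs5, fell; their summed level was 146 to 153 TPM in mECC samples and 320 to 389 TPM in HPmECC samples. Cspg4 belongs to that list, so its rise moves with that of the other 7, and the part of other cells in it was not tested. Fibroblast and stroma markers, summing to 5550 to 6030 TPM in mECC and 6400 to 6790 TPM in HPmECC, rose in 6 and fell in 5 of 11 cases (54.5% and 45.5%). Endothelial markers passed the filter in 4 of 10 cases and all 4 rose, Flt1 among them, with 9.19 to 11.4 TPM summed in mECC and 31.2 to 34.2 in HPmECC. Leukocyte markers were tested in 3 of 12 cases, summing to 12.2 to 17.0 and 20.8 to 25.7 TPM, and 2 rose and 1 fell. Cd68, a lysosomal protein of macrophages, was 1.62-fold higher, with Cd3e and Tyrobp at 0 counts in both lines. Csf1r, a growth factor receptor of macrophages, was 1.33-fold lower, a call lost with limma on log2(TPM + 1) (adjusted p = 0.167). Laptm5, a lysosomal protein of blood cells, had 5 counts in mECC and 282 in HPmECC. Mesothelial, trophoblast and neural markers were tested in 2 cases each. Of these Bnc1, a basonuclin, rose 2.51-fold, and Msln (mesothelin), Prl2c2 (a placental hormone with near-identical copies) and Tubb3 (a neuronal tubulin) fell 3.98-fold, 5.51-fold and 3.75-fold.

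The changes were unevenly spread over the chromosomes. On chromosome 12, 59.3% of 518 tested genes were called higher and 17.4% lower, and on chromosome 15, 60.8% of 579 and 19.5%. On chromosome 8 the order was turned round, with 19.3% of 767 genes higher and 56.2% lower, and on chromosome 2 likewise, with 24.7% of 1156 higher and 51.5% lower. Over all genes tested the shares were 35.8% and 35.9%. The median log2 fold changes were 0.296 on chromosome 12, 0.288 on 15, -0.21 on 8 and -0.153 on 2, and those of the other 16 chromosomes lay between -0.09 and 0.117. In single samples, relative to the mECC mean, the median of chromosome 12 was 0.299, 0.275, 0.277 and 0.294 in HPmECC, while all mECC samples lay within 0.005 of 0, so the 4 samples of a line were nearly alike. No test was made of these medians, since genes of a chromosome are not replicates.

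**Figure D5:**
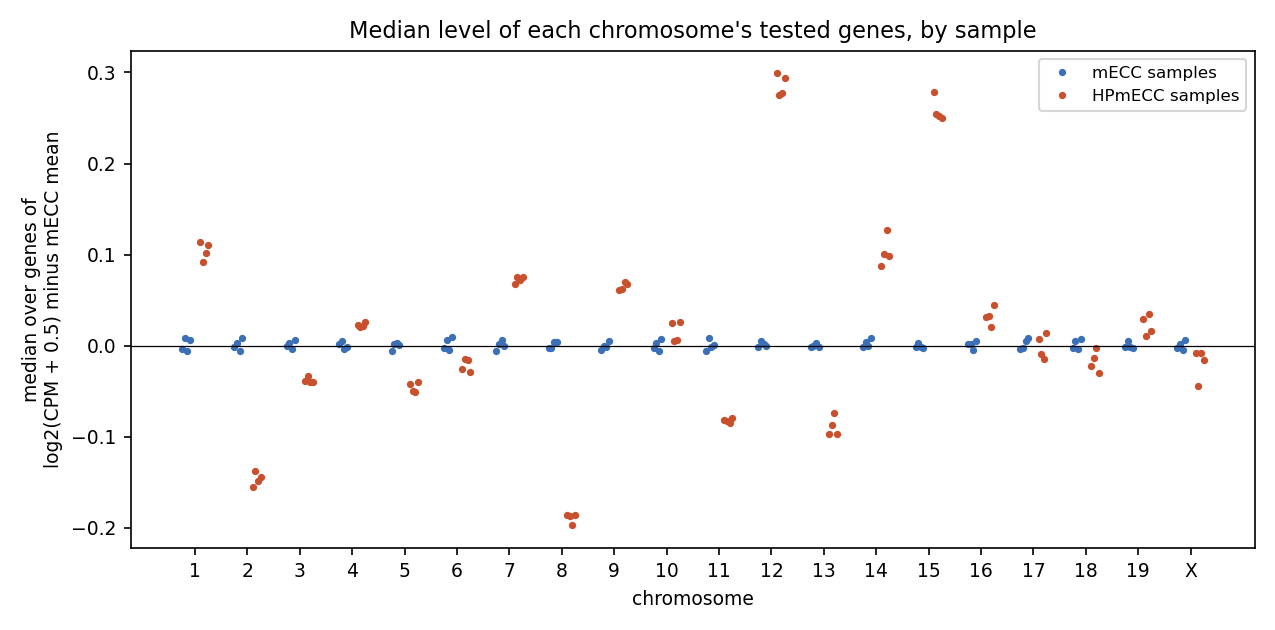
Median over each chromosome's tested genes of log2(CPM + 0.5) minus the mECC mean (vertical axis), for chromosomes 1 to 19 and X (horizontal axis), with 1 point per sample. HPmECC samples (orange) lie above 0.24 on chromosomes 12 and 15 and below -0.13 on 2 and 8, and the mECC samples (blue) stay within 0.01 of 0.

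In segments of 15 Mb, a width chosen after the values were seen, chromosome 15 medians ran from 0.224 to 0.317, apart from a segment with 10 genes at 0.021. Along chromosome 12 they ran from -0.141, in the second segment with 59 genes, to 0.558, in the last with 89 genes, and the first stood at -0.004. Chromosome 8 medians ran from -0.367 to -0.087. Genes named above lie among these: Myc, Grhl2, Wnt7b, Krt8 and Col2a1 on 15, Cdh16, Cdh1, Mmp15, Mmp2 and Cdh15 on 8, Snai1, Pax8, Foxa2, Eya2 and Trib3 on 2. They moved in both directions, and by more than the medians.

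Against the normal cells the lines fell on both sides for chromosome 8. Relative to the median of all tested genes, on the log2(TPM + 0.1) scale, chromosome 8 stood at 0.068 ± 0.011 in mECC and -0.088 ± 0.012 in HPmECC (SD, n = 4), with normal cells at 0. Chromosome 15 stood at 0.14 ± 0.022 in mECC and 0.377 ± 0.016 in HPmECC. Chromosome 12 was below normal cells in both lines, at -0.457 ± 0.012 and -0.198 ± 0.016, and chromosome 2 above in both, at 0.367 ± 0.014 and 0.198 ± 0.010. DNA copy number was not measured in these samples, and its part in the medians was not tested.

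Promoter letters were counted for the 10442 tested genes with an entry in the RefSeq table, of 14188 symbols. The Snail and Zeb type E-box CAGGTG was in 20.7% of them. Among genes at least 2-fold lower in HPmECC the share was 29.98% (253 of 844), and among genes at least 2-fold higher 25.2% (161 of 639), so it was above that of all genes in both directions. All 8 epithelial markers with an entry held it: Cldn3, Cldn4, Cldn7, Epcam, Krt7, Krt8, Krt18 and Muc1. Of 23 tight junction genes with an entry 14 did. It was as much a feature of Krt8 and Krt18, which fell less than 2-fold, as of Epcam and Cldn4, which fell over 100-fold. The Myc and Max type E-box CACGTG, which cannot overlap a CAGGTG match, was in 11.6% of all genes, 9.86% of those at least 2-fold higher and 8.29% of those at least 2-fold lower. Of 25 nucleotide synthesis genes 6 held it (24.0%), Sms, the polyamine enzyme, among them.

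The C/EBP and ATF letters TGATGCAA, searched after the amino acid list had been seen to be mostly higher, were in 0.709% of all tested genes with an entry. Of 28 amino acid genes with an entry 7 held them: Chac1, Fgf21, Nupr1, Pycr1, Slc1a4, Slc7a7 and Vldlr. That list was made in part of known ATF4 targets, so its share of the letters may follow from how members were chosen. The first 4 of the 7 rose at least 2-fold. Slc1a4, an amino acid transporter, rose 1.095-fold, a call lost with limma on log2(TPM + 1) (adjusted p = 0.0704). Slc7a7, another transporter gene, stood at 0.815 ± 0.128 and 1.24 ± 0.416 CPM with samples that overlapped, and its call was lost in several alternatives (adjusted p = 0.103 with DESeq2 and 0.0596 with a replicate block). Vldlr, a lipoprotein receptor, at 131 ± 2.84 and 134 ± 5.61 CPM, was not called by edgeR, and limma on log2(TPM + 1) called it higher (adjusted p = 0.0318). Among genes at least 2-fold higher 1.72% held the letters and among those at least 2-fold lower 0.948%. These shares count letters in windows of 300 bases, and a gene without them is not shown to lack a site elsewhere. Some genes have several entries, Slc7a7 5 of them, so the number of windows is not equal among genes.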

How the data were processed

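RNA-seq was made from 4 samples each of mECC, HPmECC and normal cultured endometrium. Per the submitters' processing notes, the authors used Trim Galore, STAR 2.6.1a, RSEM 1.3.1 and build GRCm38; the deposited table holds estimated counts per gene as whole numbers, and the deposited TPM values, per transcript length and library, come from the same run. Positions and symbols are from the GENCODE annotation, release 21, for 55144 of 55385 identifiers. Strandedness is not given in the sources used here. Members and lists were chosen with earlier results of these data known.

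The 8 cancer line samples, with 18402202 to 26873582 counts each, were filtered with filterByExpr, scaled by TMM and tested with edgeR 4.0.16 (quasi-likelihood F test, R 4.3.3) with Benjamini-Hochberg adjustment over 14201 genes. A call needs an adjusted p under 0.05. At this depth, simulated 2-fold changes of genes drawn from these libraries were called in 92.0% to 93.88% of cases and changes of 0.5 on the log2 scale in 63.27% to 69.39%. Named genes were the 10 called genes with the largest change each way, at least 10 CPM on average in the higher line and no overlap between lines (predicted gene models left out), the 6 such transcription factors each way, the list members with the largest rise and fall at 5 CPM or more, and the 6 highest TPM genes of each line; others were chosen after their values were seen, and 5 genes that the rule or this choice named are not reported here. Alternatives were DESeq2 1.42.0, limma 3.58.1 on log2(TPM + 1), other scaling and filters, all 12 samples, a replicate block and leaving out each sample. No table column was left unmapped.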

Additional observations from a re-analysis of the deposited data

Results flagged for a closer look

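In 320 groups of 4 samples, 18 had a highest or lowest sample whose gap to the nearest other exceeded the share of the group's range set by Dixon's 95% critical value; chance gives about 1 in 20 such groups. Of these 4 were in HPmECC replicate 4. Myc stood at 317 CPM there and at 261 to 271 in the other HPmECC samples, Gapdh at 4880.0 against 3790.0 to 3910.0, Ftl1 at 2350.0 against 2880.0 to 2950.0, and Cdh2 at 19.4 against 17.3 to 17.7. The lines did not overlap in these 4 genes.

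In the other HPmECC samples, Ppp2r2c stood at 0.0448 CPM in replicate 1 against 0, Mmp15 at 1.88 in replicate 2 against 1.48 to 1.55, Crabp1 at 2.81 in replicate 3 against 3.27 to 3.36, and Nectin4 at 0 in replicate 3 against 0.0752 to 0.0896. In mECC replicate 1, Acan stood at 1.17 CPM against 0.611 to 0.687, Col6a3 at 198 against 252 to 255, Eln at 0 against 0.0381 to 0.0447, and Trim54 at 0.0449 against 0. In mECC replicate 2, Pax9 stood at 13.9 against 12 to 12.2, Mmp9 at 0.191 against 0.382 to 0.404, and Col1a2 at 43.5 against 39.4 to 39.9. In mECC replicate 3, Hoxd8 stood at 6.6 against 7.82 to 8.01 and Hexa at 95.3 against 106 to 107, and in mECC replicate 4, Igf2 at 28.8 against 23.5 to 23.6. Values at or below 0.0896 CPM rest on a few reads.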

How the results depend on the processing

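The counts of 5077 higher and 5105 lower genes ranged from 3800 to 5390 and from 3799 to 5698 over the alternatives other than left-out samples. With library totals in place of TMM, which moved the median of all genes to -0.0468, they were 4576 and 5673. The counts of genes at least 2-fold apart, 905 higher and 1230 lower, became 301 and 460 with a filter of 10 CPM, 456 and 760 with limma on log2(TPM + 1), and 1390 higher with no filter. Genes in HPmECC only, 12, became 4 with 2 TPM and 71 with under 0.5 TPM, and 13 to 19 on leaving out 1 sample, with 19 without mECC replicate 3 and without HPmECC replicate 4. Genes in mECC only, 46, became 26, 164, and 29 with 0 counts against at least 10, and 47 to 57 on leaving out 1 sample. With library totals the chromosome medians were -0.197 on 2, -0.254 on 8, 0.252 on 12 and 0.244 on 15; with 10 CPM they were -0.218 on 8 and 0.325 on 12. Leaving out 1 sample gave -0.155 to -0.141 on 2, -0.209 to -0.199 on 8 and 0.282 to 0.321 on 12. In 250 bases before the start alone, CACGTG was in 9.83% and CAGGTG in 18.2% of all genes, and CAGGTG in 26.5% of those at least 2-fold lower.

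Of 2666 pairs of a named gene and an alternative, 2638 kept direction and call, and 7 genes changed in any. Yap1, not called, ranged from -0.02356 to 0.004148 without 1 sample and was called lower with limma on TPM. Vldlr, not called, stood at -0.009601 with library totals and was called higher with limma on TPM; the cause was not tested. A filter of 10 CPM, which tests fewer genes, gave 8 imprinted and 7 semaphorin-list genes higher in place of 16 and 11. With a replicate block 5012 genes were higher and 5026 lower. Deviations of same-numbered samples correlated at -0.0275, 0.0813, -0.0036 and -0.0015, so the numbers were not taken to pair the samples.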
